A study of Mus musculus with 6 samples.

Results

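The IGHD2 (DSP2) genes are a family of short diversity (D) segments of the mouse immunoglobulin heavy chain locus, and their use was described in naïve follicular (FO) B cells of 2 origins. Members were all heavy chain clonotypes whose first D hit, without its allele suffix, was an IGHD2 gene. Each clonotype stands for 1 nucleotide sequence of CDR3, the loop formed where the V, D and J segments are joined. The rule found 5 genes, IGHD2-3, IGHD2-4, IGHD2-5, IGHD2-7 and IGHD2-8, with 6030 of the 14575 heavy chain clonotypes. They were 3407 of 7794 clonotypes in the library of the iB-μMT mouse and 2623 of 6781 in that of the B6 mouse.

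The iB-μMT mouse was a μMT mouse (B6.129S2-Ighmtm1Cgn/J), which carries a disrupted Ighm gene and lacks mature B cells of its own. Recipients were 8 to 10 weeks old. It was sublethally irradiated, received hematopoietic progenitors made from a GFP-expressing mouse embryonic stem cell line of C57BL/6 background (CD45.2) with doxycycline-inducible Runx1, Hoxa9 and Lhx2 at the Rosa26 locus, and drank doxycycline. Its splenic FO B cells were sorted 4 weeks after transplantation as IgD++ IgM+ CD23++ CD21+ cells, and the same gate was used for the spleen of a C57BL/6 (B6) mouse, whose age is not given in the sources used here. There was 1 mouse and 1 heavy chain library per group, so that every test below compares the libraries and not the conditions, and differences between individual mice or libraries cannot be told apart from the origin of the cells. The heavy chain tables held 909806 reads (iB-μMT library) and 1383617 reads (B6 library), and values below are given in this order. The medians per IGHD2 clonotype were 94 and 188 reads, respectively. Of the IGHD2 clonotypes with a constant region hit, 99.9% carried IGHM, the constant gene of IgM, in both libraries (3348 of 3351 and 2591 of 2593).

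During B cell development, the RAG recombinase joins a D segment to a J segment, and the DJ unit is then joined to a V segment. The cut ends open as hairpins, which leaves short palindromic (P) nucleotides, exonucleases remove bases, and terminal deoxynucleotidyl transferase (TdT) adds non-templated (N) nucleotides. TdT is low in fetal B cell development, where joints often lie within short stretches of bases that D and J have in common. The IGHD2 segments can be read in each frame, and the frame that encodes tyrosine-rich peptides dominates in mature mouse B cells.

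The germline sequences, as read from the alignments in the clonotype tables, show how alike the members are. All have 17 bases, of which 10 are the same in every member and 7 vary. Capitals mark the positions that vary.
IGHD2-3: TctaTGatGGtTacTac
IGHD2-4: TctaCTatGAtTacGac
IGHD2-5: CctaCTatAGtAacTac
IGHD2-7: TctaCTatGGtTacGac
IGHD2-8: TctaCTatGGtAacTac
IGHD2-4 and IGHD2-7 differed at 1 position, whereas IGHD2-5 differed from IGHD2-3 and from IGHD2-4 at 5 positions. The last bases also split the members, since IGHD2-4 and IGHD2-7 end in acGac and the other members end in acTac.

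The genes lie on the heavy chain locus of chromosome 12 and are annotated as D gene segments. By RefSeq annotation (GRCm38.p6), IGHD2-8 is closest to the J genes, at chr12:113450851-113450867, followed by IGHD2-7 at chr12:113456720-113456736, IGHD2-5 at chr12:113466027-113466043, IGHD2-4 at chr12:113470694-113470710 and IGHD2-3 at chr12:113475400-113475416. IGHD4-1 is the D gene next to the J genes, and IGHD1-1 lies on the other side of IGHD2-3. IGHD2-6, also annotated in this stretch, was the first hit of 0 clonotypes. It tied with the first hit in 409 of the 470 IGHD2-5 clonotypes of the iB-μMT library and in 384 of the 425 of the B6 library, so that the values given for IGHD2-5 may include IGHD2-6. The best hit was unique, with IGHD2-5 and IGHD2-6 counted as 1 gene, in 86.2% and 84.9% of the IGHD2 clonotypes. Where hits tied, they mostly tied within the family, and 96.9% and 95.5% of the clonotypes had no tied hit outside it. IGHD2-7 was the member least often assigned alone (71.8% and 70.0%) and IGHD2-8 the most often (97.8% and 94.0%).

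IGHD2 genes were used more in the iB-μMT library, and within the family the rise was in the members at both ends of its stretch of the locus. Of the clonotypes with a D hit, 3407 of 6787 (50.2%, 95% Wilson interval 49.0 to 51.4%) used an IGHD2 gene in the iB-μMT library and 2623 of 5948 (44.1%, 42.8 to 45.4%) in the B6 library. The difference was 6.10 percentage points (p = 6.53e-12 by Fisher's exact test, two-sided). The family held 51.4% and 44.9% of the reads of clonotypes with a D hit.

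IGHD2-3, the member farthest from the J genes, was 16.1% of the clonotypes with a D hit in the iB-μMT library and 11.3% in the B6 library (1.43 times, adjusted exact p = 1.31e-14). IGHD2-8, the member closest to them, was 8.16% and 5.35% (1.53 times, adjusted exact p = 9.60e-10). These 2 of 5 members differed, against 6 of the 14 D genes tested (42.9%), with Fisher's exact test and Benjamini-Hochberg adjustment over the 14 genes. IGHD2-4, the most used member in the B6 library, was 13.8% and 14.7% (adjusted exact p = 0.198). IGHD2-5 was 6.93% and 7.15% (adjusted exact p = 0.675), and IGHD2-7 was 5.17% and 5.55% (adjusted exact p = 0.425). The order of use therefore changed at its top and its bottom, with IGHD2-3 ahead of IGHD2-4 and IGHD2-8 ahead of IGHD2-5 only in the iB-μMT library. The intervals of IGHD2-3 and IGHD2-4 were apart in both libraries, and those of IGHD2-5 and IGHD2-8 were apart in the B6 library and met in the iB-μMT library. For comparison, IGHD4-1 was 18.7% and 9.77% and IGHD1-1 was 22.2% and 34.1%.

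**Figure D1:**
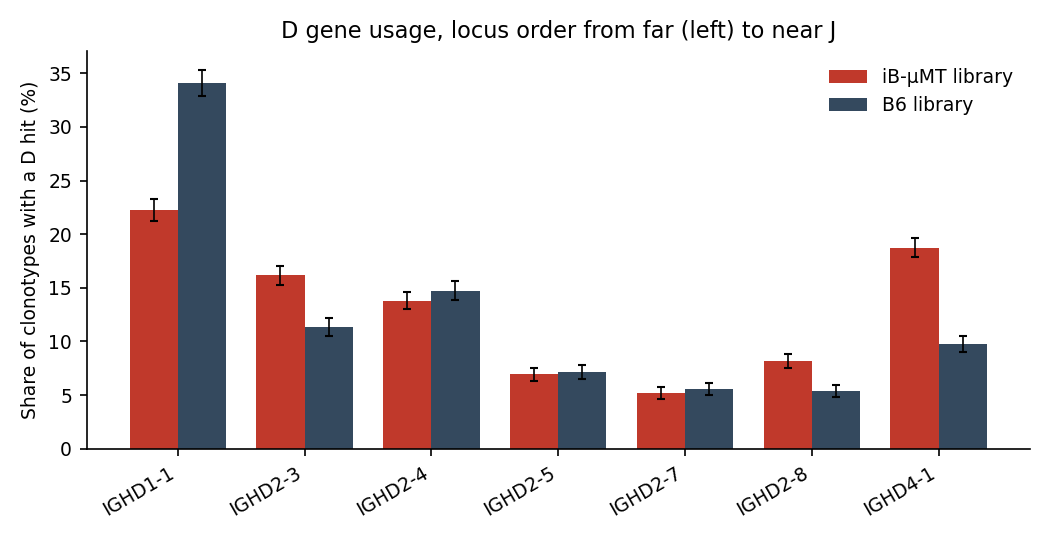
Share of clonotypes with a D hit (%, y axis) for IGHD1-1, the 5 IGHD2 members and IGHD4-1, placed in locus order with the J genes to the right; bars are the iB-μMT library (red) and the B6 library (grey), and error bars are 95% Wilson intervals, which cover counting error only. The intervals of the libraries are apart for IGHD2-3 and IGHD2-8 and overlap for IGHD2-4, IGHD2-5 and IGHD2-7.

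The junctions of IGHD2 clonotypes held fewer inserted nucleotides in the iB-μMT library, and the gap between the libraries was larger at the D-J than at the V-D junction. Inserted nucleotides are those that the alignments leave unassigned at the V-D and the D-J junction. Palindromic bases that a D or J alignment covers are assigned, and are not counted as inserted. The mean number was 4.26 in the iB-μMT library (SD 3.11, n = 3407 clonotypes) and 6.57 in the B6 library (SD 3.87, n = 2623 clonotypes), a difference of -2.31 (95% interval of the difference -2.49 to -2.13, counting error only). The V-D junction held 3.17 and 4.05 nucleotides on average, and the D-J junction 1.09 and 2.52. The median D-J junction held 0 inserted nucleotides in the iB-μMT library and 2 in the B6 library.

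The 5 members had similar differences. The mean was lowest for IGHD2-3 in both libraries (3.75 and 6.03 nucleotides) and highest for IGHD2-4 (4.82 and 6.94). The difference lay between -2.12 for IGHD2-4 and -2.36 for IGHD2-7. For all D genes outside the family the means were 4.38 and 6.20, a difference of -1.82. CDR3 of IGHD2 clonotypes was shorter in the iB-μMT library, at 14.0 ± 2.01 and 14.4 ± 2.29 amino acids (SD over clonotypes; difference -0.34, interval -0.46 to -0.23). By member, the interval of this difference included 0 for IGHD2-3 (-0.40 to 0.01) and IGHD2-4 (-0.31 to 0.09) and lay below 0 for IGHD2-5, IGHD2-7 and IGHD2-8, the last with -0.69 amino acids. For all D genes outside the family CDR3 held 13.9 and 14.4 amino acids (difference -0.56, interval -0.68 to -0.44). The difference was 0.004 for IGHD1-1 (interval -0.15 to 0.16) and -0.27 for IGHD4-1 (interval -0.46 to -0.08).

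**Figure D2:**
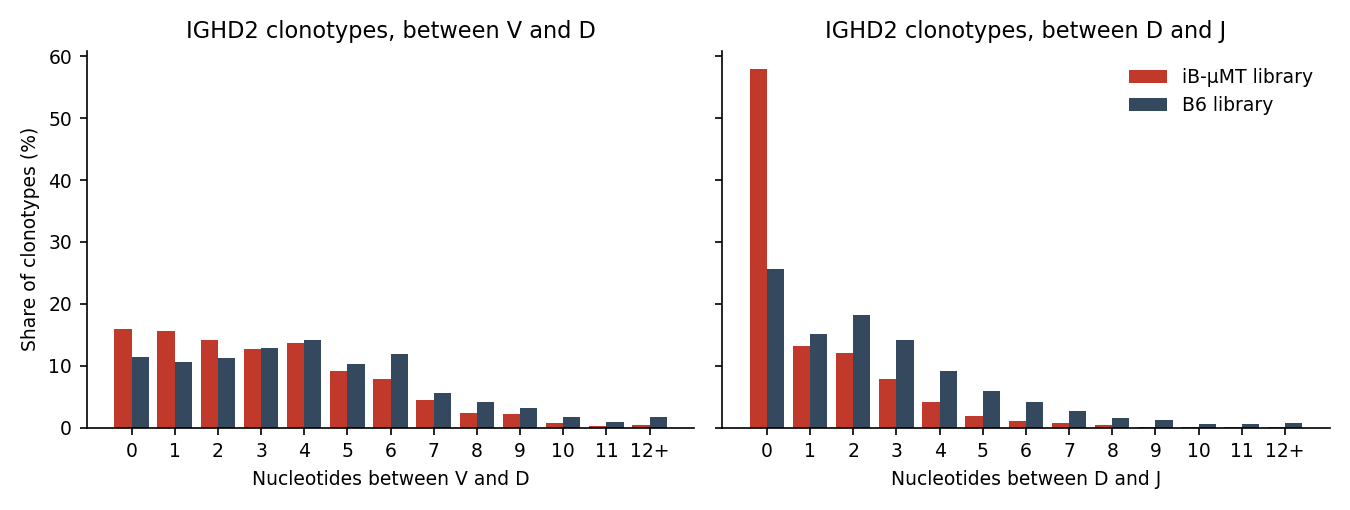
Share of IGHD2 clonotypes (%, y axis) by the number of inserted nucleotides (x axis, 12+ is 12 or more) between V and D (left) and between D and J (right), in the iB-μMT library (red, 3407 clonotypes) and the B6 library (grey, 2623 clonotypes). At the D-J junction the bar at 0 stands at 58.0% in the iB-μMT library and 25.6% in the B6 library, while at the V-D junction it stands at 16.03% and 11.4%.

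Clonotypes with no inserted nucleotide at either junction were 332 of 3407 (9.74%, 8.79 to 10.8%) in the iB-μMT library and 65 of 2623 (2.48%, 1.95 to 3.15%) in the B6 library (Fisher's exact test, p = 2.33e-32). They were 11.4% and 3.27% for IGHD2-3, 8.55% and 2.17% for IGHD2-4, 9.57% and 2.59% for IGHD2-5, 9.69% and 1.52% for IGHD2-7, and 8.66% and 2.52% for IGHD2-8. All 5 members passed the test (adjusted p of 3.38e-09 for IGHD2-3 to 5.23e-04 for IGHD2-8), as did 9 of the 14 D genes tested (64.3%), all higher in the iB-μMT library.

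No unassigned nucleotide between D and J was left in 58.0% of the IGHD2 clonotypes of the iB-μMT library and in 25.6% of those of the B6 library (exact p = 4.68e-143). These joints can hold P nucleotides, and joints read by germline bases alone are given below. The share was highest for IGHD2-8 in the iB-μMT library, at 66.2% against 26.7% in the B6 library. It was lowest for IGHD2-4 there, at 51.9% against 23.5%. In the B6 library IGHD2-3 had the highest value (29.9%) and IGHD2-7 the lowest (19.1%). All 5 members were called higher in the iB-μMT library, and so were 8 of 14 D genes (57.1%).

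How D met J could be read from the germline ends themselves. The first 17 bases of the J genes, in the order IGHJ1 to IGHJ4, are given as the tables' alignments have them.
IGHJ1: ctactggtacttcgatg
IGHJ2: actactttgactactgg
IGHJ3: cctggtttgcttactgg
IGHJ4: attactatgctatggac
Thus actac begins IGHJ2 and also ends IGHD2-3, IGHD2-5 and IGHD2-8, ctac begins IGHJ1, and IGHJ3 has no such start. For each clonotype whose D alignment was free of mismatches, D was read on and J was read back until the first mismatch. A base that fitted both germlines was counted as shared. A joint with bases that fitted neither held N or P nucleotides or a mismatch to J, since mismatches in J were not filtered out.

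Shared bases were more frequent in the iB-μMT library for every member. At least 1 shared base was found in 952 of 3032 IGHD2 joints (31.4%, 29.8 to 33.1%) in the iB-μMT library and in 137 of 2201 (6.22%, 5.29 to 7.31%) in the B6 library (Fisher's exact test, p = 4.21e-122). Bases that fitted neither germline were found in 60.9% and 89.7%. By member, the share with at least 1 shared base was 31.1% and 5.65% for IGHD2-3, 24.4% and 6.41% for IGHD2-4, 30.7% and 3.22% for IGHD2-5, 24.3% and 5.19% for IGHD2-7, and 48.5% and 11.4% for IGHD2-8. IGHD2-8 stood highest in both libraries, with intervals (44.2 to 52.9% and 8.15 to 15.7%) above those of the other members in the iB-μMT library and overlapping them in part in the B6 library. For comparison, the shares were 35.4% and 8.61% for IGHD1-1 and 13.4% and 5.80% for IGHD4-1.

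Longer shared stretches separated the members by their last bases. How many bases can be shared depends on the germline ends of D and J, so these contrasts between genes follow in part from their sequences. At least 3 shared bases were found in 21.1% of the IGHD2-3 joints, 12.5% of the IGHD2-5 joints and 29.7% of the IGHD2-8 joints of the iB-μMT library, whose germlines end in acTac. They were found in 2.82% for IGHD2-4 and 2.52% for IGHD2-7, which end in acGac. In the B6 library the values for the 5 members, in numerical order, were 4.01%, 0.385%, 2.25%, 1.04% and 6.25%. The J genes differed in the same manner. Over the family, at least 3 shared bases were found in 25.9% of joints with IGHJ1, 18.3% with IGHJ2, 17.9% with IGHJ4 and 0.128% with IGHJ3 in the iB-μMT library, and in 3.97%, 3.48%, 2.57% and 0.162% in the B6 library, respectively.

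**Figure D3:**
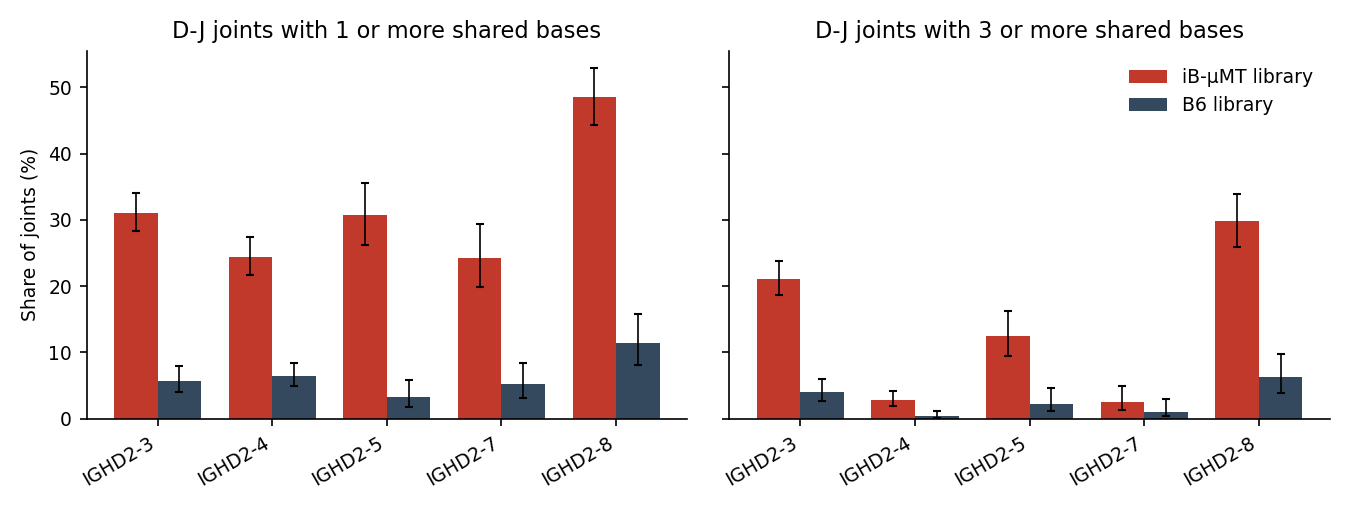
Share of D-J joints (%, y axis) with at least 1 (left) and at least 3 (right) bases that fit both germlines, for each IGHD2 member in the iB-μMT library (red) and the B6 library (grey), with 95% Wilson intervals. At least 3 shared bases reach 29.7% for IGHD2-8 and 21.1% for IGHD2-3 in the iB-μMT library and stay at 2.82% and 2.52% for IGHD2-4 and IGHD2-7.

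A few joints recurred many times. They were chosen by their total number and are given as a description, with capitals for the shared bases.
IGHD2-8 to IGHJ2: tctactatggtaACTACtttgactactgg
IGHD2-3 to IGHJ2: tctatgatggttACTACtttgactactgg
IGHD2-3 to IGHJ1: tctatgatggttaCTACtggtacttcgatg
IGHD2-8 to IGHJ4: tctactatggtaacTACtatgctatggac
IGHD2-4 to IGHJ4: tctactatgattacgACtatgctatggac
The IGHD2-8 to IGHJ2 joint with 5 shared bases made up 93 of the 194 clonotypes of that pair in the iB-μMT library (47.9%) and 9 of 94 in the B6 library (9.57%). The 93 clonotypes used 47 V genes. The corresponding IGHD2-3 to IGHJ2 joint was 77 of 289 (26.6%) and 6 of 172 (3.49%), and used 41 V genes in the iB-μMT library. The IGHD2-3 to IGHJ1 joint with 4 shared bases was 59 of 153 (38.6%) and 3 of 69 (4.35%). The IGHD2-8 to IGHJ4 joint with 3 shared bases was 55 of 183 (30.1%) and 8 of 85 (9.41%), and the IGHD2-4 to IGHJ4 joint with 2 shared bases was 58 of 291 (19.9%) and 8 of 206 (3.88%). Most clonotypes in the totals by which these 5 joints were chosen came from the iB-μMT library. Their higher share of the pair there therefore follows in part from the choice, and no test is drawn from it.

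The length of germline D left in CDR3 was nearly equal in the libraries as the tables align it. IGHD2 clonotypes kept 9.87 ± 3.74 bases in the iB-μMT library and 9.85 ± 3.99 in the B6 library (SD over 3407 and 2623 clonotypes; difference 0.01, interval -0.18 to 0.21). All 17 positions were kept in 4.96% and 5.45% (Fisher's exact test, p = 0.412). A hit with no germline position, which rests on the palindromic stretch beside the gene alone, made up 2.99% and 4.65% of the clonotypes, and 26.8% and 25.2% had fewer than 8 positions. IGHD2-4 kept the most bases in the iB-μMT library (10.7, and 10.3 in the B6 library) and IGHD2-8 kept the most in the B6 library (10.5, and 10.4 in the iB-μMT library). IGHD2-5 kept the fewest in both libraries (8.32 and 8.92).

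The ends of D differed between the libraries. At the 5′ end, 3.86 and 4.28 bases were lost (difference -0.42, interval -0.58 to -0.26). At the 3′ end, 2.97 and 2.39 bases were lost (difference 0.58, interval 0.42 to 0.74), but this direction depended on the assignment of shared bases. The aligner gave many of the bases that fitted both germlines to J. In the 3032 and 2201 clonotypes with a mismatch-free D alignment, 2.996 and 2.497 bases were lost as aligned (difference 0.50, interval 0.33 to 0.67), and 1.58 and 2.02 when shared bases were given to D (difference -0.44, interval -0.60 to -0.28). In the same clonotypes the D length went from 10.02 and 10.1 bases (difference -0.10, interval -0.29 to 0.08) to 11.4 and 10.6 bases (difference 0.84, interval 0.65 to 1.02). With that assignment the D length was greater in the iB-μMT library for IGHD2-3 (11.4 and 10.5), IGHD2-4 (11.4 and 10.5), IGHD2-5 (11.5 and 10.7) and IGHD2-8 (by 0.86 bases, interval 0.40 to 1.32), while the interval of IGHD2-7 (10.6 and 10.3) included 0. The D alignment ran past the 3′ end into the palindromic stretch in 22.3% and 33.1% of the clonotypes (exact p = 1.86e-20). It ran past the 5′ end in 12.5% and 11.9% (exact p = 0.501). Such bases can be P nucleotides or inserted bases that match the stretch, and the 2 were not told apart. A 3′ call needs D aligned to its last base, so the 3′ difference also depends on the assignment of shared bases.

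By position, with the bases assigned as the aligner had them, the libraries parted near the 3′ end. In IGHD2-8, position 10 was aligned to D in 99.5% and 96.4% of clonotypes, position 13 in 72.1% and 88.6%, and position 17, the last base, in 26.1% and 43.5%. Clonotypes are assigned to a member by the bases they keep, so values at positions that tell members apart depend in part on the assignment. Positions 9 to 12 of IGHD2-8 were each kept in 548 of 551 and 297 of 308 clonotypes. In IGHD2-3, position 13 was kept in 58.2% and 70.7% and position 17 in 29.7% and 37.7%. In IGHD2-4, position 15 was kept in 74.6% and 75.9% and position 17 in 43.4% and 52.4%. The iB-μMT library thus lay lower by more than 5 percentage points from position 12 onward in IGHD2-3 and from position 13 onward in IGHD2-8, and by more than 5 percentage points at positions 16 and 17 alone in IGHD2-4. At the 5′ end, position 1 was kept least often in IGHD2-3 (15.7% and 11.7%) and most often in IGHD2-5 (40.7% and 38.9%). The first base of IGHD2-5 differs from that of the other members, so its value also depends on the assignment.

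**Figure D4:**
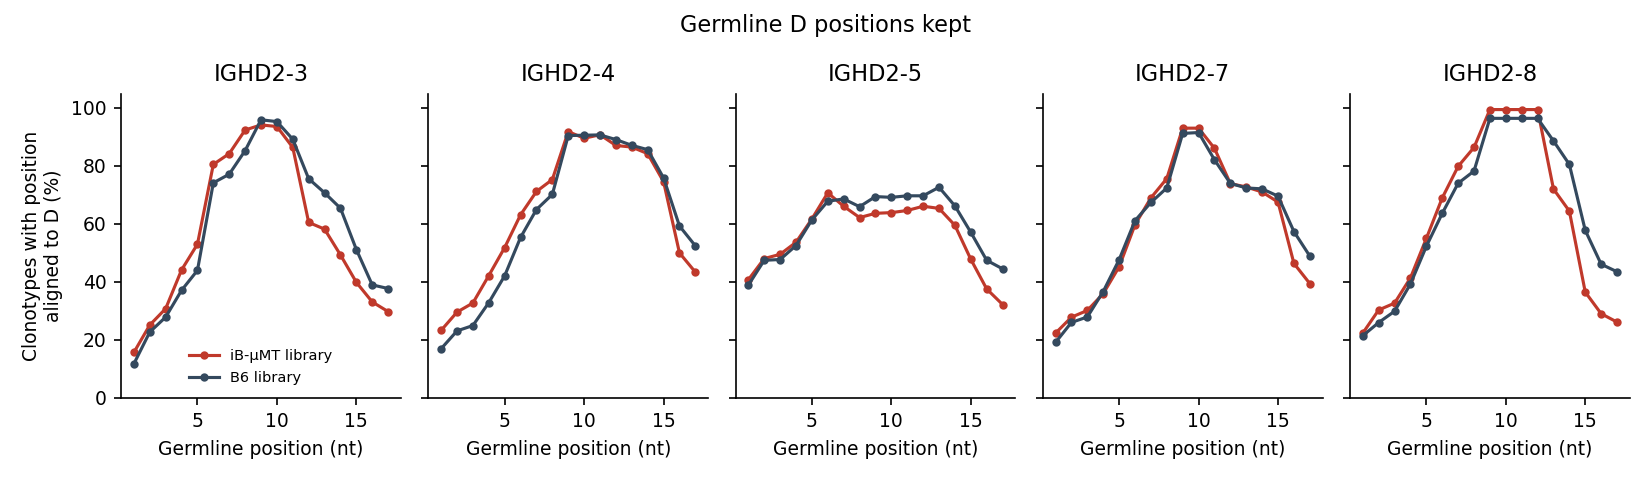
Share of clonotypes in which a germline position is aligned to D (%, y axis) by position from the 5′ end (x axis, in nucleotides), 1 panel per member, in the iB-μMT library (red) and the B6 library (grey). The centre of the gene is kept in most clonotypes, which depends in part on the assignment to a member. Towards the 3′ end the iB-μMT library lies lower, by the most in IGHD2-8, where position 15 is kept in 36.5% against 57.8%. Bases that fit both D and J were left as the aligner assigned them.

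Pairing with J genes differed less than the joints did. IGHJ4, the J gene farthest from D, was joined to 33.7% of the IGHD2 clonotypes in the iB-μMT library and to 29.1% in the B6 library (adjusted exact p = 5.82e-04 over the 4 J genes). IGHJ1 was joined to 12.1% and 13.2% (adjusted exact p = 0.210), IGHJ2 to 28.8% and 30.5% (0.206), and IGHJ3 to 25.5% and 27.3% (0.206). Weighted by reads, the difference for IGHJ4 fell from 4.62 to 1.73 percentage points, and that for IGHJ2 turned from -1.70 to 1.17. IGHJ1 was the least used partner of every member in both libraries.

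By member, 3 of the 20 pairs of an IGHD2 gene and a J gene differed between the libraries, against 6 of all 42 pairs tested (14.3%). The family was thus called about as often as all pairs were, and the pairs below are given as a description. IGHD2-8 was joined to IGHJ1 in 34 of 554 clonotypes (6.14%, 4.42 to 8.45%) in the iB-μMT library and in 45 of 318 (14.2%, 10.7 to 18.4%) in the B6 library, with an adjusted p of 0.00254. IGHD2-4 was joined to IGHJ4 in 34.1% and 26.8% (adjusted exact p = 0.00874). Outside the family, IGHJ4 was also called for IGHD1-1, at 30.6% and 25.5% (adjusted exact p = 0.00874). For IGHD4-1 it was called in the other direction, at 15.7% and 25.6% (adjusted exact p = 3.09e-05). IGHD2-3 was joined to IGHJ3 in 22.4% and 28.2% (adjusted exact p = 0.0449), a call that was lost under 9 of 10 alternatives. The IGHD2-4 call was lost with at least 5 reads and after merging near-identical clonotypes, at adjusted exact p of 0.0845 and 0.0622. The members also differed in the partner they used most. IGHD2-8 was joined most to IGHJ2 in both libraries (37.5% and 35.2%), and IGHD2-4 most to IGHJ4 in the iB-μMT library and to IGHJ3 in the B6 library (30.1% and 32.5% for IGHJ3). In each of these cases the interval overlapped that of the next most used J gene.

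V partners followed the libraries as a whole. IGHV5 genes were joined to 32.9% of IGHD2 clonotypes in the iB-μMT library and to 12.9% in the B6 library, and IGHV1 genes to 29.7% and 58.7%. For the other D genes the shares were 30.8% and 12.3% for IGHV5 and 29.97% and 60.5% for IGHV1, so that the V families were split in much the same way without IGHD2. The most frequent V genes with IGHD2 in the iB-μMT library were IGHV5-4 (14.0%, and 3.58% in the B6 library), IGHV5-6 (7.10% and 2.14%) and IGHV9-3 (5.49% and 3.96%). In the B6 library they were IGHV1-26 (4.38%, and 1.67% in the iB-μMT library), IGHV9-3 and IGHV1-64 (3.85% and 2.11%).

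The reading frame decides which peptide a D segment adds. Frames are numbered by the germline base at which a codon starts. Frame 3 of the germlines encodes YDGYY in IGHD2-3, YYDYD in IGHD2-4, YYSNY in IGHD2-5, YYGYD in IGHD2-7 and YYGNY in IGHD2-8. Frame 1 encodes SMMVT, STMIT, PTIVT, STMVT and STMVT in the same order. Frame 2 holds a stop codon in every member except IGHD2-7, where it encodes LLWLR.

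Frame 3 dominated in both libraries. It was used by 2694 of 3226 IGHD2 clonotypes with a frame (83.5%, 82.2 to 84.7%) in the iB-μMT library and 1966 of 2422 (81.2%, 79.6 to 82.7%) in the B6 library (Fisher's exact test, p = 0.0235). Among clonotypes with at least 8 germline positions the difference was -0.87 percentage points (exact p = 0.433), so that the call did not hold for longer D stretches. Frame 2 was used by 10.6% and 13.1%, and frame 1 by 5.92% and 5.70%.

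Members differed from each other by more than the libraries did. In frame 3 IGHD2-8 stood highest, at 95.1% and 93.9%, and IGHD2-7 lowest, at 67.7% and 64.4%. IGHD2-3 (82.7% and 81.0%), IGHD2-4 (82.5% and 81.1%) and IGHD2-5 (85.6% and 86.0%) lay between them. Between the libraries, 0 of 5 members passed the test (1 of 12 D genes, 8.33%; at an unadjusted p under 0.05, 2 of 12 and no member). Between members, 7 of 10 pairs differed in each library after adjustment over the 20 comparisons, namely every pair with IGHD2-7 or IGHD2-8, for which the adjusted p of that pair itself was 3.62e-26 in the iB-μMT library and 2.41e-19 in the B6 library. IGHD2-7, the member without a stop codon in frame 2, used that frame in 20.1% and 19.7% of its clonotypes, the highest values of the family, and IGHD2-8 in 1.87% and 4.71%, the lowest. IGHD2-7 also had the highest share of frame 1 (12.3% and 15.9%). Clonotypes are assigned to a member by the bases they keep, so these contrasts between members depend in part on the assignment. The pairs of members were not tested again under the alternatives.

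**Figure D5:**
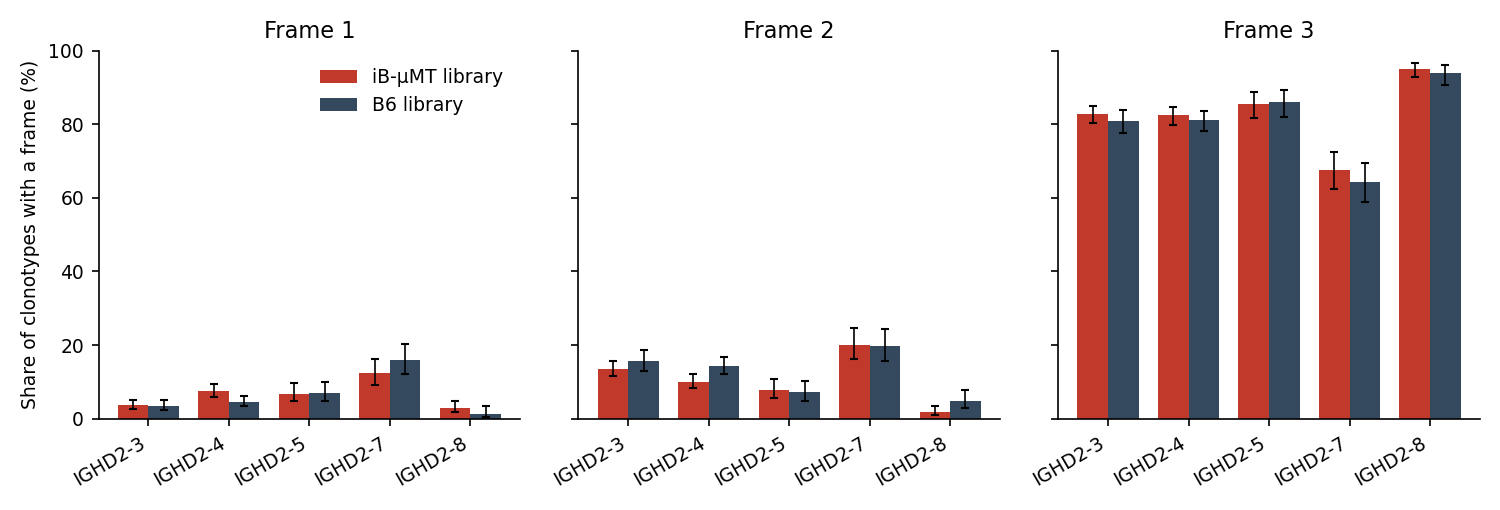
Share of clonotypes with a frame (%, y axis) that read each IGHD2 member in frame 1, 2 or 3 (panels), in the iB-μMT library (red) and the B6 library (grey), with 95% Wilson intervals. Frame 3 is above 64% for every member, IGHD2-8 is near 95% and IGHD2-7 has the largest shares of frames 1 and 2.

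With the libraries pooled, the most frequent string of 4 residues in the D part was DGYY for IGHD2-3 (17.8% of clonotypes in the iB-μMT library and 19.2% in the B6 library), YDYD for IGHD2-4 (22.6% and 26.0%), YSNY for IGHD2-5 (14.4% and 23.3%), YGYD for IGHD2-7 (12.5% and 18.8%) and YYGN for IGHD2-8 (18.7% and 21.4%). In the B6 library alone, YGNY of IGHD2-8 was ahead of YYGN, at 23.1% (15.6% in the iB-μMT library). Each is part of the member's frame 3. The intervals of the libraries were apart for YSNY (11.3 to 18.1% and 19.3 to 27.9%), whose last codon lies on the bases that IGHD2-5 shares with IGHJ2, and overlapped slightly for YGNY of IGHD2-8 (12.8 to 18.9% and 18.7 to 28.1%). Strings and residues were counted over bases the aligner gave to D. Strings near the 3′ end thus miss joints whose shared bases went to J. How far this moved the values was not tested. The second string of IGHD2-4, YYDY, was found in 19.1% and 15.1%. Tyrosine was the most frequent residue of the D part, at 35.4% and 36.2% of its residues, followed by aspartate (19.6% and 20.7%) and glycine (15.05% and 12.8%). Asparagine was 20.03% and 21.5% in IGHD2-8 and 1.17% and 1.29% in IGHD2-4, and serine was 19.8% and 19.4% in IGHD2-5 alone among the members, the others lying between 0.42% and 2.32%.

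Clonotypes that were not productive, with a stop codon in CDR3 or a CDR3 out of frame, were counted together. They were 25 IGHD2 clonotypes (0.734%) of the iB-μMT library and 66 (2.52%) of the B6 library (Fisher's exact test, p = 2.31e-08). Mismatches to the germline in the D alignment were also fewer in the iB-μMT library, at 8.16% and 11.9% (exact p = 1.19e-06), and the part of read depth in these differences was not tested.

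Single clonotypes illustrate the joints, with the aligned D bases in capitals. They are those with the most reads of their gene in their library.
IGHD2-3, iB-μMT library: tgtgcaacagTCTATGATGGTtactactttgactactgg
IGHD2-8, iB-μMT library: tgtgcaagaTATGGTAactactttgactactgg
IGHD2-7, iB-μMT library: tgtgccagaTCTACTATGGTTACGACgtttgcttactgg
IGHD2-8, B6 library: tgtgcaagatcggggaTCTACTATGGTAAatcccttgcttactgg
The IGHD2-3 clonotype, with IGHV3-6 and IGHJ2, had 5930 reads, or 0.652% of the heavy chain reads of the iB-μMT library. It had no inserted nucleotide and carried the shared actac described above. The IGHD2-8 clonotype, with IGHV1-64 and IGHJ2, had 650 reads and the same joint. The IGHD2-7 clonotype, with IGHV2-9-1 and IGHJ3, had 453 reads, kept all 17 germline positions and was read in frame 1. The IGHD2-8 clonotype of the B6 library, with IGHV1-50 and IGHJ3, had 969 reads and 5 inserted nucleotides at each junction. The most read clonotype had no inserted nucleotide for 4 of 5 members in the iB-μMT library and for 0 of 5 in the B6 library. For IGHD2-3 in the B6 library it had no germline D position, so that its D gene is uncertain.

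Both libraries had 10 IGHD2 clonotypes in common by CDR3 nucleotide sequence, V gene and J gene, which were 0.294% of those of the iB-μMT library and 0.381% of those of the B6 library. In 9 of the 10 a single read supported the clonotype in 1 of the libraries, and 0 of the 10 lacked inserted nucleotides. The shared clonotype with the most reads, IGHD2-7 with IGHV9-3 and IGHJ3, had 380 reads in the B6 library and 1 in the iB-μMT library, and whether such reads passed between libraries was not tested.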

How the data were processed

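RNA from the sorted cells was amplified by 5′ RACE and sequenced on an Illumina MiSeq, and the authors assembled clonotypes with MiXCR. They deposited, for each clonotype, a read count, the fraction of all reads that it made up, CDR3 sequences, gene hits and alignments. The 2 heavy chain libraries of 6 were used, and counts were used as deposited. The submitters' processing notes name mm10 and bcl2fastq.

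Each clonotype was counted once, since no molecular identifiers are described. A D reference in the tables is 3 times the gene's length, with the gene between palindromic stretches. Germline D and J sequences were read from the alignments, and positions in the genome were taken from the RefSeq table (GRCm38.p6) by gene name.

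The test of shares was Fisher's two-sided exact test with Benjamini-Hochberg adjustment at 0.05 over all D genes, or D-J pairs, with at least 20 clonotypes in both libraries together. Intervals are 95% Wilson intervals, or normal intervals for differences of means, and cover counting error only. PCR reads are not independent molecules. Motifs of 4 residues used codons with at least 2 germline D bases as aligned. The members, comparators (IGHD1-1 and IGHD4-1), the 3 V genes most used with IGHD2 per library, all J genes and the clonotypes with the most reads were named by rule. Members, lists and tests were chosen with earlier results of these data known. The recurrent joints and the analysis of shared bases were added after the tables had been seen.

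Alternatives were clonotypes with at least 2 or 5 reads, merging of clonotypes 1 mismatch from one with at least 10 times the reads, equal read numbers, unique D hits, at least 8 germline D positions, productive clonotypes, weighting by reads and leaving out clonotypes found in both libraries. Python 3.11.15, NumPy 2.4.6, SciPy 1.17.1, pandas 2.3.3 and Matplotlib 3.10.9 were used. The test of D gene shares and the count of shared bases were checked on simulated data, and the other measures were not.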

Additional observations from a re-analysis of the deposited data

How the results depend on the processing

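No paired analysis was possible because each group had 1 library. The higher share of IGHD2 genes in the iB-μMT library lay between 5.37 and 7.43 percentage points over the alternatives, the share without inserted nucleotides was 7.23 to 10.6 points higher, and IGHD2-3 and IGHD2-8 were called under every alternative with a test. The frame 3 difference was not stable. It was -0.87 points with at least 8 germline D positions and 0.90 with a unique D hit, which no IGHD2-5 clonotype had. It was 0.48 when IGHD2-5 and IGHD2-6 were counted as 1 gene for uniqueness. With tied hits of 1 family it was 1.77, and weighted by reads it was 4.83. The differences for IGHJ3 with a unique D hit (-3.27 points) and for IGHJ1 with IGHD2-5 and IGHD2-6 as 1 gene (-2.38) passed the threshold. Weighting by reads moved the differences for IGHJ2 to 1.17 points, IGHJ4 to 1.73, no inserted nucleotide to 10.6, no nucleotide between D and J to 35.1, and the mean number of inserted nucleotides to -2.50. The difference in D length was -0.10 bases in mismatch-free D alignments, and 0.84 there when shared bases were given to D. The number of D-J pairs called was 2 with at least 5 reads, and 3 after merging or with at least 8 positions, in place of 6. The number of D genes called for their frame was 2 with at least 5 reads and for productive clonotypes, in place of 1. The alternatives with IGHD2-5 and IGHD2-6 as 1 gene, tied hits of 1 family, mismatch-free alignments and shared bases given to D were added after seeing the data. The cause of these changes was not tested, and with 1 mouse per group the spread between mice is unknown.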
